A study of Mus musculus with 16 samples.

Results

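The genes that carry glucose into the cell, break it down to pyruvate and lactate, and carry lactate out again were followed in cultured heart slices. The set comprised 36 genes, grouped by their textbook function and chosen with earlier results of these data known. It held the glucose carriers, the enzymes from hexokinase to lactate dehydrogenase and the bifunctional enzymes that set phosphofructokinase activity (the PFKFB family). It also held the kinases that switch off pyruvate dehydrogenase (PDH), the lactate carriers and 3 glycogen enzymes. All 36 are among the 55487 genes of the count table, and all 36 are among the 24971 genes tested, which had at least 10 counts over the 16 libraries.

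The study cultured heart slices of wild type (WT) mice and of Swhtr null mice and sequenced their RNA, asking how tissue without the long non-coding RNA Swhtr answers a period of low oxygen. Swhtr (Sweetheart) is transcribed beside the cardiac transcription factor gene Nkx2-5, and in the null line, carried as homozygotes, an inserted polyadenylation stop cassette ends its transcription early. Slices came from 8 week old male C57Bl6/J mice, 4 of each genotype from 2 litters, with the apex and the base of the heart removed. The paper states that the null line was made on a hybrid background, backcrossed to C57Bl6/J and then kept by mating homozygotes. WT and Swhtr null mice were therefore not littermates, and genotype cannot be told apart from litter and line background. Untreated slices spent 14 days at 21% O2, and treated slices spent 7 days at 3% O2 followed by 7 days at 21% O2, so that every library was taken at the end of culture under normal oxygen and none at the end of the low-oxygen phase. Both genotypes thus have a treated and an untreated group, and each of these 4 groups has 4 libraries, numbered 1 to 4, and values are given in that order. The 8 libraries of a genotype came from 4 mice and the labels do not say which mouse is behind which library, so p-values, which take libraries as independent, may rest on less independent material than the numbers of libraries say.

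Glycolysis splits glucose into pyruvate with a small gain of ATP and needs no oxygen. When pyruvate does not enter the mitochondria it is reduced to lactate, which leaves the cell through monocarboxylate carriers. The adult heart muscle draws most of its ATP from fatty acids, whereas fibroblasts, endothelial cells and macrophages rely more on glycolysis. Many genes of the pathway are textbook targets of the hypoxia-inducible factors (HIF), transcription factors that are degraded when oxygen is present.

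Libraries held 17830351 to 29941903 counts. Levels are in CPM, the counts of a gene scaled to a common library size, here after trimmed mean of M-values (TMM) correction. The labelled tissue is heart, but the defining markers of heart muscle cells were close to absent: Myh6, the main myosin of adult mouse heart muscle, was between 0.0513 and 21.0 CPM, and Nppa was at 0 in 12 of 16 libraries. The 10 heart muscle markers together reached 6.10 to 100.1 CPM, against 23616 to 34029 CPM for 10 fibroblast markers and 4048 to 13145 CPM for 10 macrophage markers. Swhtr null treated replicate 2 stood apart, with the lowest macrophage marker level and the highest heart muscle and fibroblast marker levels of all 16 libraries. Its untreated counterpart by number also had the lowest macrophage marker level of its group, 8099 CPM. No annotated gene covers the Swhtr unit, so the genotype was not checked from the counts.

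All 36 genes were detected, from 0.555 to 590.5 CPM per kb of exon on average, a span in which 8 enzymes stood above all others. Compared per length, the order over the 16 libraries was led by Pgk1 (590.5 CPM per kb), Pkm (557), Gapdh (551), Aldoa (531) and Pgam1 (513), whose ranges over libraries overlapped. Ldha (386 CPM per kb), Eno1 (361) and Tpi1 (263) came next. The ubiquitous glucose carrier Slc2a1 (GLUT1) was at rank 10 with 100.9 CPM per kb. At the low end were Slc2a4 (GLUT4, the insulin-dependent carrier of muscle and fat) with 0.563 CPM per kb and Pfkfb1 with 0.555. In CPM, 18 of the 36 genes averaged at least 100, 3 were between 40 and 100, 15 were under 40, and 5 of those were under 10.

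**Figure D1:**
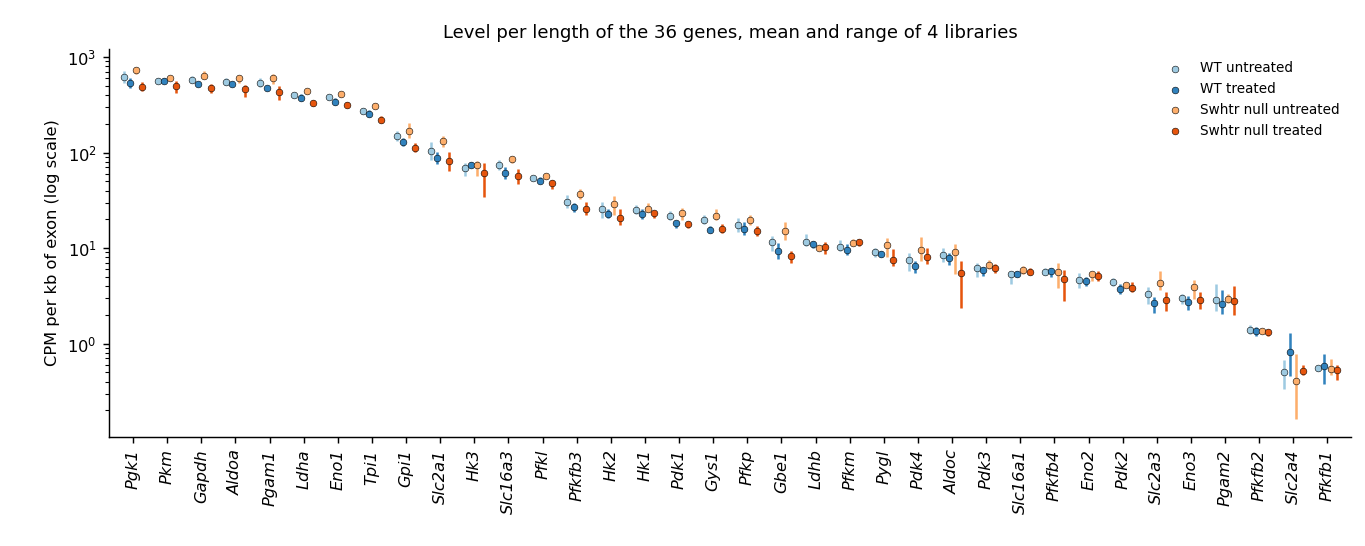
Level of each of the 36 genes per kb of exon (log axis), with the point for the mean and the bar for the range of the 4 libraries of each group. Genes are ordered by their mean over 16 libraries, from Pgk1 (590.5 CPM per kb) to Pfkfb1 (0.555).

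In each step with several isoforms, a single gene led by CPM per kb. Slc2a1 made up 96.3% of the 3 glucose carriers, Aldoa 98.6% of aldolase, Pgam1 99.4% of phosphoglycerate mutase, Eno1 97.8% of enolase and Ldha 97.2% of lactate dehydrogenase (means over 16 libraries). Slc16a3 (MCT4), a carrier that mostly exports lactate, held 92.3% of the lactate carriers, and the rest was Slc16a1 (MCT1). Slc2a4, Pgam2, Eno3 and Ldhb were minor forms of their steps. Among hexokinases the order was Hk3 with 58.6%, Hk1 with 20.8% and Hk2 with 20.6%. Hk3 is known mainly from myeloid blood cells, and Hk2 is the form of muscle and of cells with high glucose use. The liver form Pfkl led phosphofructokinase with 65.4%, before the platelet form Pfkp with 21.1% and the muscle form Pfkm with 13.4%. Pfkfb3 held 80.1% of its family and Pfkfb4 14.7%. The PDH kinases had the smallest leading share by this length, with Pdk1 at 52.6%, Pdk4 at 20.5%, Pdk3 at 16.3% and Pdk2 at 10.6%. Length choice mattered here: with the longest transcript in place of all exons, the WT untreated share of Hk3 went from 57.9% to 50.5%. That of Pdk1 went from 54.8% to 60.7%, so hexokinase then had the smallest leading share. The leading form of each step by group mean was unchanged. Shares in 1 library departed from the rest: Hk3 was 44.9% of hexokinase in its lowest Swhtr null treated library, against group means of 57.4% to 61.9%. With the longest transcript it was 36.6% there, below Hk1 at 45.8%.

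**Figure D2:**
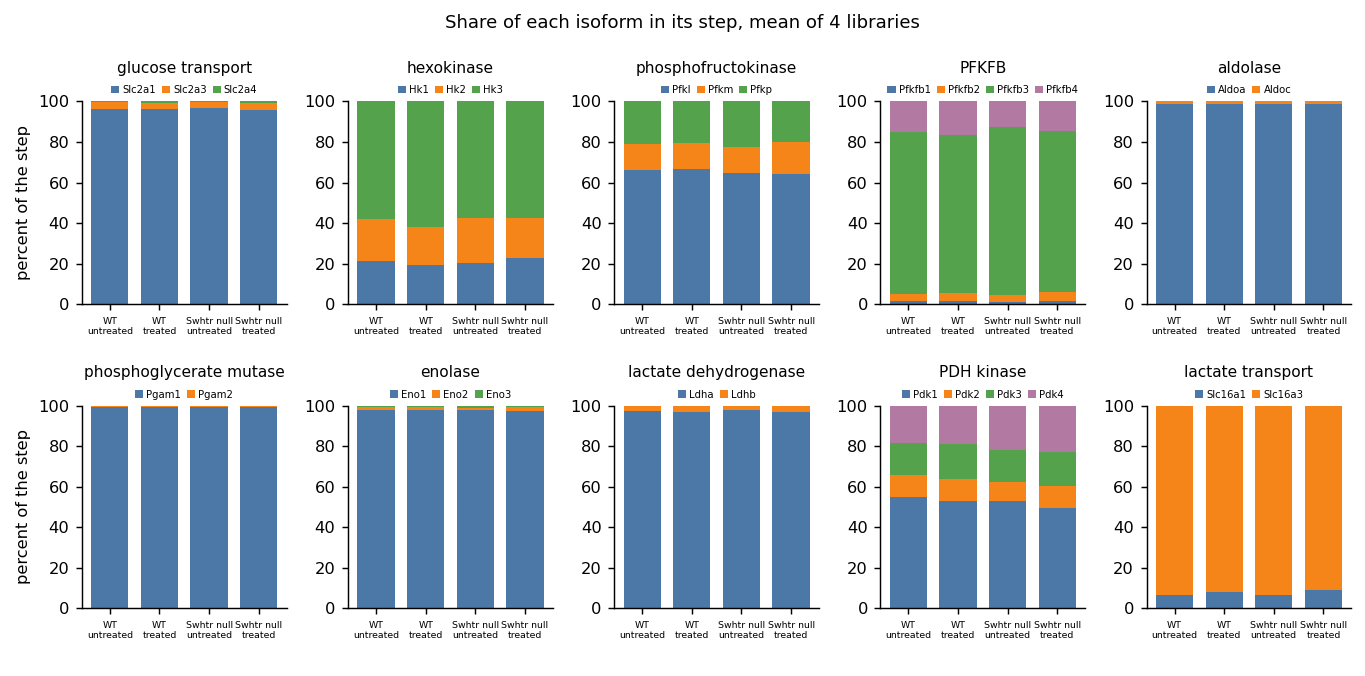
Stacked shares of each isoform (percent of the CPM per kb of its step) in the 4 groups, each bar a mean of 4 libraries. A single isoform fills more than 90% of glucose transport, aldolase, phosphoglycerate mutase, enolase, lactate dehydrogenase and lactate transport, while hexokinase, phosphofructokinase and PDH kinase are mixed.

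In the hypoxia-normoxia treated Swhtr null slices most genes of the pathway were at lower levels than in the untreated ones. Of the 36 genes, 5 were called (adjusted p under 0.05 with a log2 fold change of more than 0.58 either way, edgeR quasi-likelihood test, Benjamini-Hochberg over 24971 genes), all lower: the glucose carrier Slc2a1, the isomerase Gpi1, the kinase Pgk1, the lactate carrier Slc16a3 and the glycogen branching enzyme Gbe1. Over all genes tested, 0.621% were called in this comparison. Without regard to fold, 14 of 36 genes were lower with an adjusted p under 0.05, against 1.27% of all genes. By estimate, 33 were lower and 3 higher, with a median log2 fold change of -0.38 against 0.01 over all genes. An unadjusted p under 0.05 was reached by 22 genes, all lower, where 7.84% of all genes were lower and 8.69% higher at that level. In 18 genes every treated library was below every untreated one, against 3.78% of all genes. In WT slices no gene of the set was called, nor was any of the 24971 genes (0%). There 31 of 36 genes were lower by estimate, with a median of -0.13 against 0.01 over all genes, and 5 genes, all lower, had an unadjusted p under 0.05, where 2.2% of all genes were lower and 2.62% higher. The treated and untreated WT libraries did not overlap for 2 genes, Gys1 and Pdk1, against 1.75% of all genes lower in this way.

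**Figure D3:**
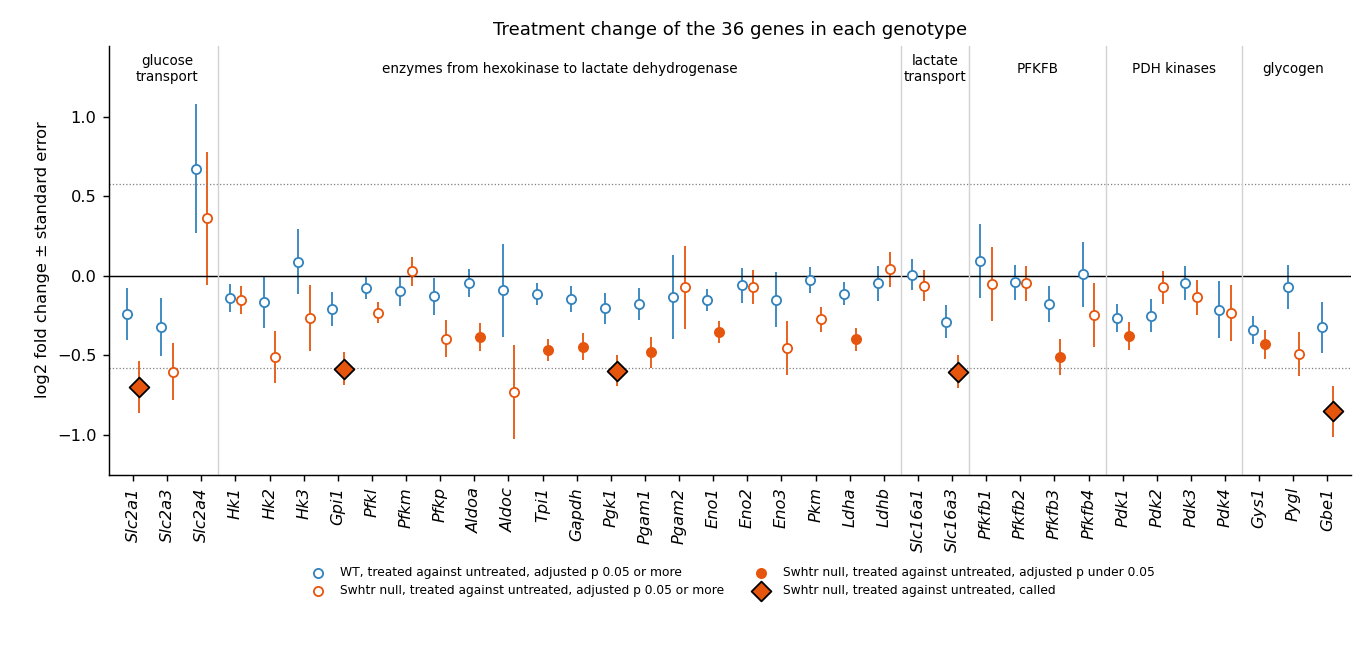
Treatment change of each of the 36 genes as log2 fold change, treated minus untreated, with bars of 1 standard error, in WT (blue) and Swhtr null (orange) slices; filled points have an adjusted p under 0.05 and diamonds mark the 5 called genes. Dotted lines stand at a log2 fold change of 0.58 in each direction. In Swhtr null slices 33 of 36 points lie below 0, and in WT slices 31 of 36.

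Glucose carriers opened the pathway. Slc2a1 (ENSMUSG00000028645, chr4:119108711-119137983, plus strand, GRCm38) was at 401, 415, 526 and 496 CPM in Swhtr null untreated and 227, 264, 359 and 281 CPM in Swhtr null treated libraries. The groups did not overlap, and the level fell by 38.5% (log2 fold change -0.70 ± 0.16 SE, adjusted p = 0.0416). In WT it was at 296, 302, 411 and 447 CPM untreated and 267, 284, 328 and 353 CPM treated, which overlapped (log2 fold change -0.24 ± 0.16 SE, adjusted p = 0.999). Slc2a3 (GLUT3), a high-affinity carrier, was at 27.5, 26.7, 41.6 and 30.1 CPM in Swhtr null untreated and 15.8, 21.0, 25.1 and 20.8 CPM in treated libraries, without overlap. Its log2 fold change of -0.60 ± 0.18 SE was as large as that of called genes but had an adjusted p of 0.104. With replicate numbers taken as pairs, which the labels do not state, it was -0.60 ± 0.09 (edgeR, adjusted p = 3.15e-05). DESeq2 gave -0.61 ± 0.18 with an adjusted p of 0.0163. WT libraries held Slc2a3 at 18.9, 21.9, 26.4 and 28.3 CPM untreated and 17.02, 15.2, 22.3 and 21.9 CPM treated. Slc2a4 ranged from 0.564 to 4.52 CPM in the 16 libraries and did not pass the test in any comparison.

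Hexokinases trap glucose in the cell by adding a phosphate. Hk1, the housekeeping form, was at 206, 213, 255 and 203 CPM in Swhtr null untreated and 175, 209, 207 and 198 CPM in treated libraries, and at 202, 194, 225 and 238 CPM untreated and 171, 189, 205 and 217 CPM treated in the WT groups. Hk2 was at 173, 133, 208 and 183 CPM untreated and 111, 104, 154 and 122 CPM treated in the Swhtr null groups, and at 126, 125, 182 and 174 CPM untreated and 123, 139, 153 and 127 CPM treated in WT. For both genes treated and untreated libraries overlapped, and the Hk2 estimate in Swhtr null slices, -0.51 ± 0.16 SE, had an adjusted p of 0.135. Hk3 was at 286, 209.5, 296 and 301 CPM in Swhtr null untreated and 234, 126, 267 and 283 CPM in treated libraries, and at 245, 209, 281 and 289 CPM untreated and 265, 270.1, 291 and 264 CPM treated in WT. Its lowest value, in Swhtr null treated replicate 2, belongs to the library with the lowest macrophage markers, 4048 CPM against 7734 to 10291 CPM in the other 3 libraries of the group. The part of macrophage content in the Hk3 level was not tested.

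Gpi1, which turns glucose phosphate into fructose phosphate, was one of the called genes. Gpi1 (ENSMUSG00000036427, chr7:34201330-34230336, minus strand) was at 960.0, 924, 1313 and 1161 CPM in Swhtr null untreated and 667, 661, 812 and 766 CPM in treated libraries. No treated library reached the untreated range, and the level fell by 33.3% (log2 fold change -0.58 ± 0.11 SE, adjusted p = 0.00612). This estimate lay just past the fold threshold. With the replicate numbers as pairs it was -0.575 with an adjusted p of 7.45e-07 and was no longer called. WT libraries held Gpi1 at 843, 931, 987 and 1071 CPM untreated and 804, 757, 847 and 911 CPM treated (log2 fold change -0.21 ± 0.11 SE, adjusted p = 0.999).

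Phosphofructokinase commits the sugar to glycolysis. Pfkl was at 357, 392, 394 and 361 CPM in Swhtr null untreated and 279.8, 348, 336 and 318 CPM in treated libraries, and at 354, 350.4, 369.6 and 359 CPM untreated and 329, 326, 334 and 370.3 CPM treated in WT. Pfkp was at 247, 236, 301 and 277 CPM untreated and 179, 203, 226 and 198 CPM treated in Swhtr null, and at 199.5, 203, 249 and 275 CPM untreated and 183, 196, 217 and 250.5 CPM treated in WT. Neither gene overlapped between the Swhtr null groups, with log2 fold changes of -0.23 ± 0.07 for Pfkl and -0.40 ± 0.12 for Pfkp, but the adjusted p was 0.0822 and 0.0909. The muscle form Pfkm was at 35.9, 37.0, 41.9 and 36.2 CPM untreated and 37.4, 41.6, 40.1 and 35.1 CPM treated in Swhtr null, and at 31.2, 34.2, 40.5 and 32.2 CPM untreated and 28.4, 31.8, 37.0 and 31.8 CPM treated in WT. It was one of the 3 genes with an estimate above 0 in Swhtr null slices (0.03 ± 0.09 SE), beside Slc2a4 and Ldhb, and none of the 3 passed the test.

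Pfkfb3, which makes the sugar phosphate that activates phosphofructokinase, was at 267, 245, 318 and 286 CPM in Swhtr null untreated and 167, 196, 229 and 191 CPM in treated libraries, without overlap. It passed the adjusted p but not the fold threshold (log2 fold change -0.51 ± 0.12 SE, adjusted p = 0.0259). WT libraries had 201, 199, 253 and 274 CPM untreated and 179.9, 206, 223 and 210.3 CPM treated (-0.18 ± 0.11 SE). Pfkfb4 was at 29.8, 18.8, 28.4 and 33.8 CPM untreated and 25.8, 13.6, 28.8 and 25.3 CPM treated in Swhtr null, and at 25.7, 27.00, 27.6 and 30.3 CPM untreated and 30.1, 24.4, 27.6 and 29.2 CPM treated in WT, with overlap in both. Pfkfb1 (1.503 to 3.12 CPM) and Pfkfb2 (8.71 to 11.4 CPM) did not pass the test in any comparison.

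The later steps of glycolysis split the sugar and regain ATP, and the genes with the highest levels of the set belong to them. Aldoa, which cleaves the sugar, was at 1645, 1552, 1874 and 1887 CPM in Swhtr null untreated and 1284, 1108, 1478 and 1457 CPM in treated libraries, without overlap (-0.39 ± 0.09 SE, adjusted p = 0.0215). WT libraries held it at 1522, 1480.5, 1569 and 1744 CPM untreated and 1534, 1477, 1520.0 and 1585 CPM treated, with overlap. Its minor form Aldoc was at 32.3, 17.3, 33.6 and 35.69 CPM untreated and 18.7, 7.77, 21.6 and 23.8 CPM treated in Swhtr null, and at 23.1, 26.3, 28.1 and 32.6 CPM untreated and 28.9, 21.7, 25.8 and 27.05 CPM treated in WT. Swhtr null libraries of Aldoc overlapped, with replicate 2 the lowest of both groups, and the adjusted p was 0.238 for a log2 fold change of -0.73 ± 0.30 SE. With the replicate numbers as pairs, Aldoc reached -0.77 ± 0.10 with an adjusted p of 3.87e-05. Tpi1, the isomerase of the triose phosphates, was at 786, 816, 847 and 898 CPM in Swhtr null untreated and 574, 565, 662 and 619 CPM in treated libraries. It had the smallest p of the 36 genes (-0.47 ± 0.07 SE, adjusted p = 0.00383), did not overlap and stayed under the fold threshold. WT libraries held Tpi1 at 743, 712, 768 and 805 CPM untreated and 698, 646, 685 and 769.7 CPM treated (-0.11 ± 0.07 SE).

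Gapdh, which makes the first NADH of the pathway and often serves as a reference gene, was at 2463, 2413, 2912 and 2742 CPM in Swhtr null untreated and 1749, 1771, 2145 and 2071 CPM in treated libraries. The groups did not overlap and the level fell by 26.54% (-0.44 ± 0.08 SE, adjusted p = 0.00737). In WT it was at 2188, 2248, 2491 and 2623 CPM untreated and 2094, 2079, 2179 and 2287 CPM treated (-0.14 ± 0.08 SE). Pgk1 (ENSMUSG00000062070, chrX:106187100-106203699, plus strand), the first enzyme of the pathway to form ATP, was at 1482, 1506, 1768 and 1772 CPM in Swhtr null untreated and 983, 989, 1225 and 1119.8 CPM in treated libraries. It was called, with every treated library below every untreated one, and fell by 33.9% (-0.60 ± 0.10 SE, adjusted p = 0.00425). In WT, Pgk1 was at 1277, 1211, 1466 and 1588 CPM untreated and 1164, 1063, 1221 and 1365 CPM treated, with overlap (-0.20 ± 0.10 SE).

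Pgam1, the mutase that moves the phosphate within phosphoglycerate, was at 1152, 1029.9, 1295 and 1317 CPM in Swhtr null untreated and 822, 697, 974 and 939 CPM in treated libraries (-0.48 ± 0.10 SE, adjusted p = 0.0124). WT libraries held 991, 962, 1109 and 1204 CPM untreated and 923, 897, 980.2 and 971 CPM treated. The Swhtr null groups of Pgam1 did not overlap and the WT groups did. Pgam2, the muscle form, was at 1.66 to 3.57 CPM in the 16 libraries. Eno1, the enolase of most tissues, was at 2036, 2180.2, 2280.3 and 2247 CPM in Swhtr null untreated and 1585, 1659, 1837 and 1758 CPM in treated libraries, without overlap (-0.35 ± 0.07 SE, adjusted p = 0.00853). In WT it was at 1900.4, 2034, 2076 and 2161 CPM untreated and 1818, 1699, 1836 and 1998 CPM treated (-0.15 ± 0.07 SE, adjusted p = 0.999). Eno2, the neuronal form, was at 26.2, 21.4, 26.54 and 26.2 CPM untreated and 23.2, 23.9, 26.98 and 21.5 CPM treated in Swhtr null, and at 17.995, 20.2, 25.8 and 23.7 CPM untreated and 23.7, 21.3, 20.5 and 18.8 CPM treated in WT. Eno3, the muscle form, was at 7.16, 5.12, 6.63 and 8.15 CPM untreated and 4.900, 4.83, 6.04 and 3.98 CPM treated in Swhtr null, and at 4.51, 5.52, 5.05 and 5.78 CPM untreated and 5.33, 4.08, 3.88 and 5.52 CPM treated in WT. Both minor enolases overlapped between treated and untreated libraries in both genotypes.

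Near-identical copies can share reads with these genes. Pgam1-ps2 held 19.6% to 21.9% of the summed counts of Pgam1 and itself. Eno1b held 7.29% to 8.45% of those of Eno1 and itself, and Pgk1-rs7 4.28% to 4.85% of those of Pgk1 and itself. Copies were looked for by name only. These shares count reads assigned to a copy and do not measure how uncertain the levels of Pgam1, Eno1 and Pgk1 are. The 3 copies were lower in treated Swhtr null slices as well, each with an adjusted p under 0.05, with log2 fold changes of -0.43 for Pgam1-ps2, -0.46 for Eno1b and -0.54 for Pgk1-rs7.

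Pyruvate and lactate closed the route. Pkm, the pyruvate kinase of tissues other than liver and red cells, was at 2923, 2925, 3086 and 3179.8 CPM in Swhtr null untreated and 2452, 2086, 2701 and 2778 CPM in treated libraries, without overlap (-0.27 ± 0.08 SE, adjusted p = 0.0829). WT libraries had 2783, 2652, 2848 and 3036 CPM untreated and 2664, 2670.2, 2739 and 3043 CPM treated. Pkm missed the adjusted p threshold although its groups were separated. Ldha, which reduces pyruvate to lactate, was at 1357, 1460.3, 1476 and 1523 CPM in Swhtr null untreated and 1037, 1019.9, 1180.4 and 1178 CPM in treated libraries (-0.40 ± 0.07 SE, adjusted p = 0.00612). The groups did not overlap, whereas the WT groups did, at 1268, 1232, 1380.5 and 1429.9 CPM untreated and 1195, 1158, 1210.0 and 1348 CPM treated (-0.11 ± 0.07 SE). Ldhb, the heart form that favours the reverse reaction, was at 15.1, 16.1, 16.9 and 15.2 CPM untreated and 15.0, 18.1, 18.3 and 13.7 CPM treated in Swhtr null, and at 16.4, 22.1, 16.96 and 16.9 CPM untreated and 18.6, 18.3, 15.9 and 17.1 CPM treated in WT, with overlap in both. The lactate exporter Slc16a3 (ENSMUSG00000025161, chr11:120948480-120960868, plus strand) was at 417, 437, 484 and 480.4 CPM in Swhtr null untreated and 252, 299, 355 and 291 CPM in treated libraries. It was called without overlap and fell by 34.2% (-0.60 ± 0.10 SE, adjusted p = 0.00516). In WT it was at 353, 365, 417 and 445 CPM untreated and 297, 284, 335 and 377 CPM treated, which overlapped (-0.29 ± 0.10 SE, adjusted p = 0.999). Slc16a1, which carries lactate in either direction, was at 23.6, 29.0, 25.7 and 26.6 CPM untreated and 27.3, 25.5, 24.54 and 23.1 CPM treated in Swhtr null, and at 18.7, 25.1, 25.5 and 25.5 CPM untreated and 25.7, 22.2, 24.47 and 22.8 CPM treated in WT, with overlap in both.

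The PDH kinases keep pyruvate out of the citric acid cycle. Pdk1 was at 174, 152, 204 and 187 CPM in Swhtr null untreated and 127, 139, 149 and 136 CPM in treated libraries, without overlap (-0.38 ± 0.09 SE, adjusted p = 0.0260). It was also separated in WT, at 153, 155, 181 and 190.1 CPM untreated and 150.4, 127, 138 and 150.2 CPM treated (-0.26 ± 0.09 SE, adjusted p = 0.999). Pdk2 was at 12.8, 12.8, 13.5 and 12.4 CPM untreated and 11.5, 12.6, 13.8 and 10.98 CPM treated in Swhtr null, and at 13.7, 14.3, 15.5 and 12.6 CPM untreated and 13.4, 12.3, 10.9 and 10.6 CPM treated in WT (-0.25 ± 0.10 SE, adjusted p = 0.999). Pdk3 was at 16.9, 19.3, 17.2 and 15.6 CPM untreated and 16.2, 15.0, 14.2 and 17.5 CPM treated in Swhtr null, and at 12.9, 16.4, 17.8 and 15.8 CPM untreated and 16.3, 13.00, 16.1 and 15.5 CPM treated in WT. Pdk4, the form raised by fasting and fatty acid use, was at 29.2, 46.1, 33.7 and 25.5 CPM untreated and 26.9, 34.8, 23.8 and 28.7 CPM treated in Swhtr null, and at 20.1, 31.2, 27.7 and 25.5 CPM untreated and 22.53, 19.2, 22.8 and 25.7 CPM treated in WT. For Pdk2, Pdk3 and Pdk4 the treated and untreated ranges overlapped in both genotypes.

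Among glycogen enzymes 2 of 3 passed the adjusted p in Swhtr null slices. Gbe1 (ENSMUSG00000022707, chr16:70313949-70569716, plus strand), which adds branches to glycogen, was at 65.5, 70.6, 101.5 and 82.3 CPM in Swhtr null untreated and 43.2, 37.2, 47.2 and 49.5 CPM in treated libraries. Its groups did not overlap, and it fell by 44.6%, the largest drop among the 5 called genes (-0.85 ± 0.16 SE, adjusted p = 0.0150). In WT, Gbe1 was at 56.0, 49.7, 68.9 and 72.3 CPM untreated and 45.9, 40.9, 49.6 and 61.0 CPM treated, with overlap (-0.32 ± 0.16 SE). Gys1, the glycogen synthase of muscle and most other tissues, was at 94.6, 93.4, 123 and 99.9 CPM in Swhtr null untreated and 68.4, 77.98, 84.8 and 73.3 CPM in treated libraries, without overlap (-0.43 ± 0.09 SE, adjusted p = 0.0147). Gys1 was likewise separated in WT, at 85.4, 87.3, 105 and 100.8 CPM untreated and 73.3, 69.4, 75.6 and 80.8 CPM treated. That was the smallest WT p of the 36 genes (-0.34 ± 0.09 SE, adjusted p = 0.99). Pygl, the liver form of glycogen phosphorylase, averaged 62.4 CPM with a range of 44.8 to 87.6, and its log2 fold change in Swhtr null slices was -0.49 ± 0.14 SE (adjusted p = 0.0834).

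**Figure D4:**
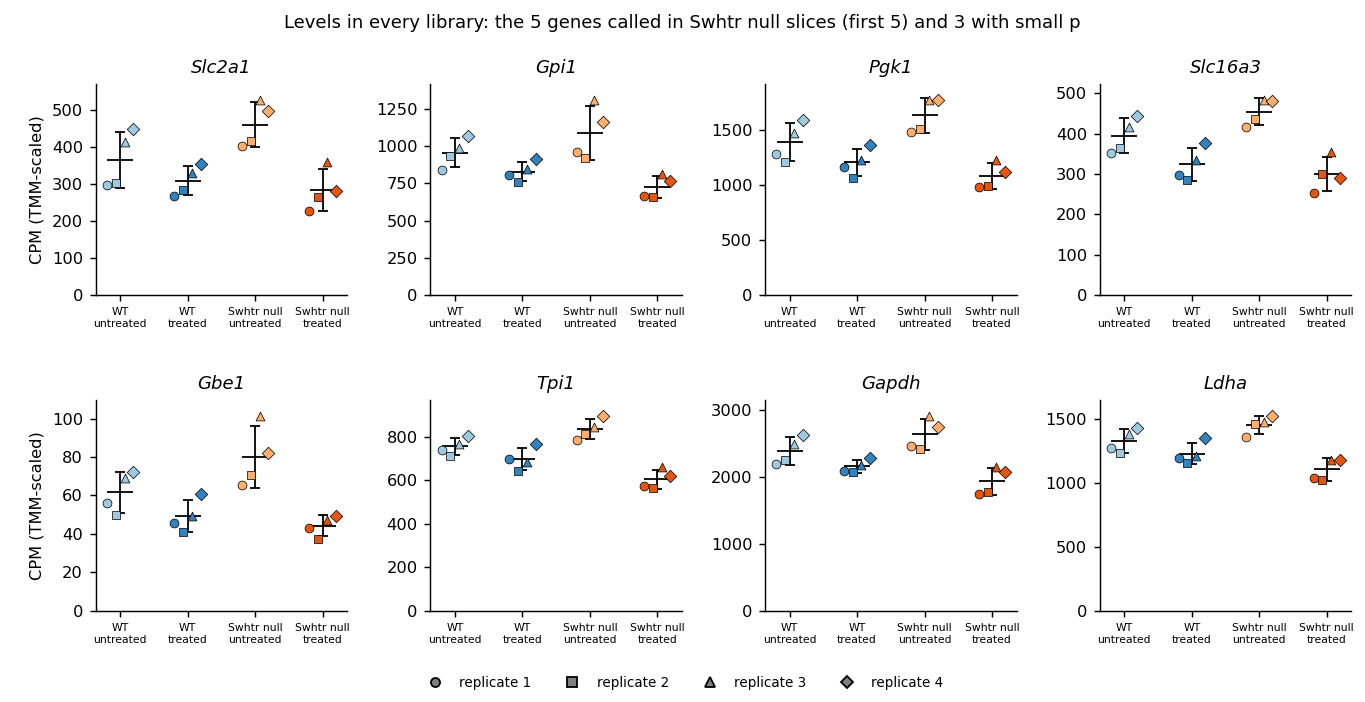
CPM in every library (symbols mark replicates 1 to 4) for Slc2a1, Gpi1, Pgk1, Slc16a3 and Gbe1, the called genes, and for Tpi1, Gapdh and Ldha; lines show the mean and bars 1 SD of 4 libraries. In all 8 genes the Swhtr null treated libraries lie below the Swhtr null untreated ones, and the WT groups overlap.

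All 18 genes averaging at least 100 CPM were lower by estimate in treated Swhtr null slices, with a median log2 fold change of -0.42. Of them, 15 did not overlap and 12 passed the adjusted p. Over all genes tested, 3.78% were lower without overlap, 1.27% were lower with an adjusted p under 0.05 and 0.621% were called. The shares among genes of like level were not computed. Of the 15 genes under 40 CPM, 12 were lower by estimate, with a median of -0.07, and none passed the adjusted p. Standard errors ran from 0.09 to 0.42 in the genes under 40 CPM and from 0.07 to 0.21 in the abundant ones. By role, 18 of 20 enzymes from hexokinase to lactate dehydrogenase were lower by estimate, of which 8 passed the adjusted p and 2 were called. Of the 5 carriers 4 were lower by estimate and 2 were called, of the 8 PFKFB enzymes and PDH kinases all were lower by estimate and 2 passed the adjusted p without being called, and of the 3 glycogen enzymes all were lower by estimate, 2 passed and 1 was called. In WT, 17 of the 18 abundant genes were lower by estimate, with a median of -0.15.

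Summed over the 36 genes, the pathway held 1.88% of counts without and 1.44% with treatment in Swhtr null slices, and 1.72% and 1.58% in WT. The sums were 17839, 17724, 20453 and 20042 CPM in Swhtr null untreated and 13299, 12842, 15752 and 15119 CPM in treated libraries. The treated sums were all lower, by 23.0% to 27.5% when libraries of the same number were set side by side. WT sums were 16065, 16019, 17781 and 18860 CPM untreated and 15283, 14856, 15873 and 17044 CPM treated, and overlapped, with the treated library lower by 4.86% to 10.7% at each number. Libraries 3 and 4 had higher sums than libraries 1 and 2 in each of the 4 groups. Which mouse or litter a number stands for is not given, and the part of the litters in this pattern was not tested.

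**Figure D5:**
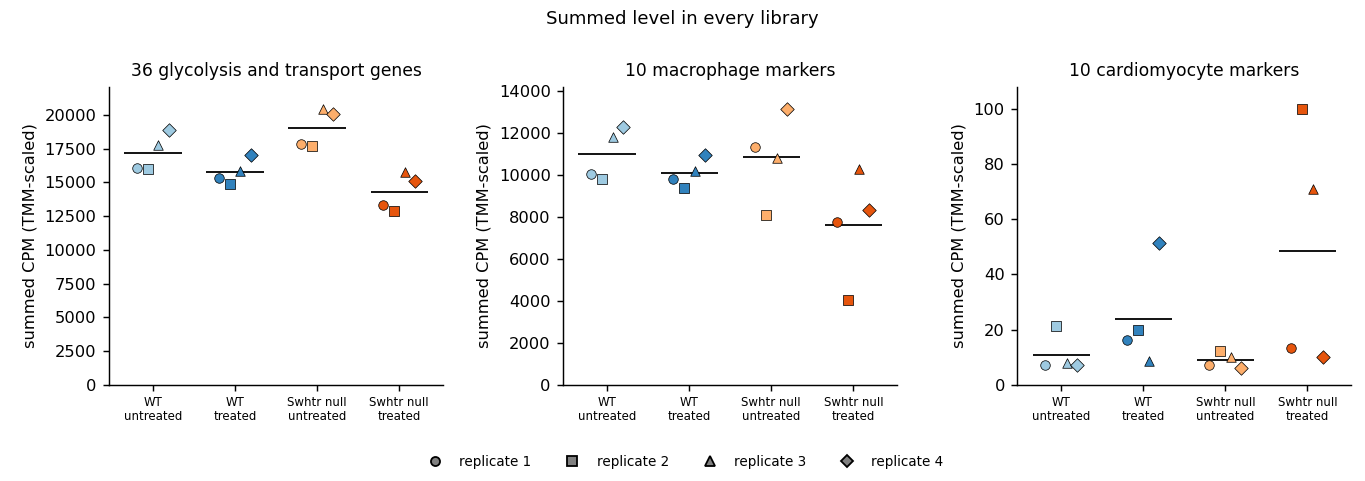
Summed CPM in every library (symbols mark replicates, lines the mean of 4) for the 36 genes, 10 macrophage markers and 10 heart muscle markers. The 36 genes lie at 12842 to 15752 CPM in Swhtr null treated and 17724 to 20453 CPM in Swhtr null untreated libraries, the macrophage markers reach their lowest value of 4048 CPM in Swhtr null treated replicate 2, and the heart muscle markers stay at or below 100.1 CPM.

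The cell type markers moved in the same comparison. In treated Swhtr null slices all 10 macrophage markers were lower by estimate (median log2 fold change -0.55) with none called, their summed level ranging from 4048 to 10291 CPM against 8099 to 13145 CPM untreated, and none was at 0 in any library. All 10 heart muscle markers were higher by estimate with none called (10.03 to 100.1 CPM against 6.10 to 12.2 CPM), 9 of 10 fibroblast markers were higher with 1 called (25730 to 34029 CPM against 23616 to 28273 CPM), and 8 of 8 endothelial and 5 of 6 smooth muscle markers were higher with none called. In bulk RNA fewer cells of a type and less RNA per cell cannot be told apart. The part of these shifts in the lower glycolytic levels was not tested. Without Swhtr null treated replicate 2, the library with the fewest macrophage transcripts, 35 of 36 genes were lower by estimate with a median of -0.35. Calls went from 5 to 1, Slc16a3. The remaining treated Swhtr null libraries held 7734 to 10291 CPM of macrophage markers.

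Single libraries decided the number of calls. It was 1 without Swhtr null untreated replicate 3 or treated replicate 1 (Gbe1 in each case), 0 without untreated replicate 4, 8 without treated replicate 3, and 4 to 7 without untreated replicate 1 or 2 or treated replicate 4. Over all genes the calls moved as well, from 155 to 49 without untreated replicate 3, 77 without treated replicate 1, 22 without untreated replicate 4, 80 without treated replicate 2, 300 without treated replicate 3 and 575 without untreated replicate 2. The median log2 fold change of the 36 genes stayed between -0.42 and -0.33 in all 8 of these fits. Fitted on the 8 Swhtr null libraries alone, edgeR called 0 of the 36 genes while 21 were lower at an unadjusted p under 0.05. Of the 22330 genes tested in that fit, 1437 were lower at that level. DESeq2 called 6 of the 36 (the 5 and Slc2a3), against 2.94% of all genes it tested, and limma voom called 3. In WT, DESeq2 and limma voom called none of the 36, where DESeq2 called 0.0482% of all genes.

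Whether the treatment response differed between genotypes was tested by the interaction term. A genotype here stands together with its litters and line background. No gene of the set was called, nor was any of the 24971 genes (0%), and DESeq2 also called none (0%), while limma voom called none of the 36. By estimate 32 of 36 genes had a lower treatment log2 fold change in Swhtr null than in WT slices, with a median difference in log2 fold change of -0.27 against 0.00 over all genes. An unadjusted p under 0.05 was reached by 11 genes, all in that direction, where 3.63% of all genes were lower and 3.26% higher. The smallest p was that of Tpi1, whose response differed by -0.35 ± 0.10 SE on the log2 scale (adjusted p = 0.715). Next came Pgk1 with -0.39 ± 0.14, Ldha with -0.28 ± 0.10, Aldoa with -0.34 ± 0.12 and Gapdh with -0.30 ± 0.12. The differences of Gpi1, Gbe1 and Pgam1 were -0.38 ± 0.15, -0.53 ± 0.23 and -0.30 ± 0.14. The number of these genes at an unadjusted p under 0.05 depended on single libraries, with medians of -0.32 to -0.21. It ran from 4 without Swhtr null untreated replicate 3 to 15 without WT untreated replicate 4 or Swhtr null treated replicate 3. Over all genes, 733 of 24751, 1032 of 24783 and 1160 of 24649 were lower at that level in these fits, in that order. A block of replicate numbers within each genotype pairs the WT libraries too, where same-numbered libraries did not all deviate together (correlations of -0.108, -0.0836, 0.165 and 0.319). With this block 20 genes were lower at an unadjusted p under 0.05, where 1510 of all 24971 genes were lower and 1266 higher. An adjusted p under 0.05 was reached by 8 genes, against 0.797% of all genes. Of these 1 was called, Aldoc at -0.69 ± 0.14 (adjusted p = 0.0294, edgeR), against 0.208% of all genes, and the others included Slc2a1, Gbe1, Pgk1 and Gpi1. Without the block none of the 36 passed the adjusted p. For Pdk1 and Gys1, whose groups were separated in both genotypes, the differences were -0.11 ± 0.13 and -0.09 ± 0.13 SE.

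The untreated slices were compared between genotypes, where genotype cannot be told apart from litter and line background. Untreated Swhtr null slices had 31 of 36 genes higher by estimate than untreated WT slices, with a median of 0.14 against 0.00 over all genes, and all 18 abundant genes were among them. None was called by edgeR, DESeq2 or limma voom (0.1% of all genes by edgeR and 0.172% by DESeq2), and no gene was without overlap. At an unadjusted p under 0.05, 5 genes were higher and none lower, where 2.72% of all genes were higher and 2.64% lower. These were Pgk1 (0.24 ± 0.10 SE, adjusted p = 0.903), Pfkfb3 (0.27 ± 0.11), Gbe1 (0.37 ± 0.16), Eno3 (0.38 ± 0.17) and Slc2a3 (0.40 ± 0.18). Tpi1, Pdk4 and Slc2a1 followed with 0.15 ± 0.07, 0.36 ± 0.18 and 0.34 ± 0.16 SE. The count of 5 went to 0 without WT untreated replicate 1 or Swhtr null untreated replicate 3, where 1 gene was lower in the latter case. It went to 13 without WT untreated replicate 4, with medians of 0.10 to 0.18 over the left-out libraries. Over all genes, 371 of 24780, 502 of 24751 and 826 of 24783 were higher at that level in these fits, in that order. This comparison and the Swhtr null treatment comparison share the Swhtr null untreated libraries, so a high level there enters both.

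The treated slices were compared in the same way, with the same limit. Treated Swhtr null slices had 25 of 36 genes lower by estimate than treated WT slices, with a median of -0.11 against -0.00 over all genes, and 17 of the 18 abundant ones were lower. None was called by edgeR, DESeq2 or limma voom (0.0921% of all genes by edgeR and 0.199% by DESeq2). At an unadjusted p under 0.05, 3 genes were lower and 1 higher, where 3.36% of all genes were lower and 2.88% higher. The 3 were Tpi1 (-0.21 ± 0.07 SE, adjusted p = 0.767), Aldoa (-0.20 ± 0.09) and Ldha (-0.15 ± 0.07), and the 1 was Pfkm (0.26 ± 0.09 SE). Gapdh, Pdk4, Pkm and Gpi1 followed with -0.16 ± 0.08, 0.34 ± 0.18, -0.15 ± 0.08 and -0.19 ± 0.11 SE. With each library left out in turn, the median lay between -0.15 and -0.05, nearest 0 without WT treated replicate 4 or Swhtr null treated replicate 1. The 3 lower genes became 1 to 8, with 8 without Swhtr null treated replicate 3, where 1196 of all 24649 genes were lower at that level.

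Promoters of the 36 genes were read for the core letters of the HIF element, ACGTG or GCGTG on either strand, in RefSeq windows (GRCm38.p6) of the 250 bases before the transcription start. Windows were found for 34 of the 36 genes, all except Slc2a3 and Slc2a4. The letters occurred in at least 1 window of 28 of the 34 genes, against 41.5% of all 27025 genes with a window. By window they occurred in 38 of 53 (71.7%), against 38.6% of the 32851 windows of all genes. Windows were not matched for base content. The E-box CACGTG, which contains the first motif, occurred in 6 of 53 windows (11.3%), against 6.02% of all. Of the called genes, Pgk1, Slc16a3 and Slc2a1 had 2 matches each and Gpi1 and Gbe1 had none. Other genes with a match and an adjusted p under 0.05 in treated Swhtr null slices, such as Gapdh, are not shown. At most 4 genes are shown, the called ones with matches and Ldha, the gene with the next smallest p and a match. All are on the plus strand, annotated exon bases are left out, and capitals mark the matches of ACGTG or GCGTG on either strand, joined where they overlap. They lie at chrX:106186850-106187099 (Pgk1), chr11:120948817-120949052 (Slc16a3), chr4:119108495-119108710 (Slc2a1) and chr7:46845554-46845803 (Ldha). The Slc16a3 and Ldha windows lie inside the annotated genes, after the start of a transcript that begins further upstream.
Pgk1: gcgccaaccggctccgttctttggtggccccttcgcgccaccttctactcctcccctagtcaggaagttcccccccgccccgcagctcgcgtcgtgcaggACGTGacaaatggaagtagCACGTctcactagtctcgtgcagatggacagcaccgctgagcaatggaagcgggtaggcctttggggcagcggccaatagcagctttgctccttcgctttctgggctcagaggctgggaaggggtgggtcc
Slc16a3: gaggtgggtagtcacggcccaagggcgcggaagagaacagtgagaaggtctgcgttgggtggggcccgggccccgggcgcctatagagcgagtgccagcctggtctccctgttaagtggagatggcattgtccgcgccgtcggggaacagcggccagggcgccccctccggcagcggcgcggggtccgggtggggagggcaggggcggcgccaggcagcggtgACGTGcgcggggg
Slc2a1: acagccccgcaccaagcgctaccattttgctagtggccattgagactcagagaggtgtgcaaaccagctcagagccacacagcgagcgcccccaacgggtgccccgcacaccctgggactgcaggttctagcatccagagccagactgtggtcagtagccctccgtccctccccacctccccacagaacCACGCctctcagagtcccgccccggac
Ldha: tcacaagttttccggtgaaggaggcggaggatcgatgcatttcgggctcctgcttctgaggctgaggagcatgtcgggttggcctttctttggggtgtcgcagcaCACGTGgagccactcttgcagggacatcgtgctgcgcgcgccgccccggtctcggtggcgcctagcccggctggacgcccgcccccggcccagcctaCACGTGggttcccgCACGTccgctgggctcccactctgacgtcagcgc
The matches begin 150 and 131 bases before the start in Pgk1, 27 in Slc16a3 and 61 in Slc2a1, and Slc16a3 and Slc2a1 have a further match 14 and 36 bases before it that reaches annotated exon and is not shown. In Ldha they begin 145, 144, 48, 47 and 34 bases before the start, and those at 145 and 144 and at 48 and 47 are E-boxes read on both strands. A match of these letters is a description and not evidence of binding.

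The other genes of sugar metabolism were split in direction. Of 52 other genes of glucose, glycogen, pentose phosphate and pyruvate metabolism 49 were tested. In treated Swhtr null slices 20 were higher and 29 lower by estimate, with a median log2 fold change of -0.03 against 0.01 over all genes. Over all genes 0.621% were called there and 1.27% were lower past the adjusted p. Pygm, the glycogen phosphorylase of muscle, was called higher, from 2.65 to 5.07 CPM (0.93 ± 0.22 SE, adjusted p = 0.0242). Pgm1, a phosphoglucomutase, and Bsg, the chaperone of the lactate carriers, passed the adjusted p without the fold (-0.39 and -0.34). Ugp2, which makes the sugar donor for glycogen, did not pass (-0.32). In WT 25 were higher and 24 lower with a median of 0.00, and none passed. Among the smallest WT p were those of Pdhb (0.16), Rpia (0.25), Pgm1 (-0.18) and Pdp2 (0.26).

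Of 20 hypoxia response genes outside the set, 17 were lower by estimate in treated Swhtr null slices, with a median of -0.45 against 0.01 over all genes. Past the adjusted p were 8 lower and 1 higher, and 4 of the 8 were called. Over all genes 1.27% were lower past the adjusted p and 0.621% were called. Ddit4, an inhibitor of growth signalling, fell by 0.81 on the log2 scale (adjusted p = 0.00130) and Ankrd37 by 1.39 (adjusted p = 0.00948). Bnip3, a mitophagy receptor, fell by 0.79 (adjusted p = 0.0325) and Adm, the hormone adrenomedullin, by 0.67 (adjusted p = 0.0303). Higd1a, a mitochondrial protein, passed without the fold (-0.50), and Epas1, which encodes a HIF subunit, was the 1 higher (0.47). In WT 18 of 20 were lower by estimate with a median of -0.23 and none passed. Ddit4 was closest there (-0.64 ± 0.10 SE, adjusted p = 0.0542), before Ankrd37 (-0.77), Kdm3a (-0.22), Bnip3 (-0.44) and Adm (-0.37).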

How the data were processed

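RNA of 16 heart slice libraries was sequenced, with 4 libraries in each of 4 groups. The authors aligned reads to mm10, the GRCm38 assembly, with STAR and counted over Ensembl gene models with GenomicAlignments, and the deposited counts are raw whole-number counts per gene, used as they are. The library kit is described differently in the labels and the methods, and whether counting used strand is not given in the sources used here, so antisense overlap cannot be told apart.

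Genes with at least 10 counts in all were tested with edgeR 4.0.16 (R 4.3.3, TMM, robust quasi-likelihood test, all 16 libraries in 1 fit with 12 residual degrees of freedom) in 5 comparisons. Standard errors are those of log2 fold changes. The authors' own cut-offs were taken (adjusted p 0.05, log2 fold change 0.58), and DESeq2 1.42.0 and limma voom 3.58.1 were alternatives, with other scalings, filters, call rules and left-out libraries. The script was tested on simulated data. CPM per kb divides by the union of exons in GENCODE M21, where 55227 of 55487 gene identifiers were found. No 2 libraries of a group agreed within counting noise. Same-numbered Swhtr null libraries deviated together (correlations of 0.148, 0.591, 0.259 and 0.399 over 14229 genes). A number was read as a pair in that genotype, which the labels do not state. The same number was the best match for numbers 2, 3 and 4 but not for number 1. WT numbers did not all deviate together (-0.108, -0.0836, 0.165 and 0.319), and the same number was the best match for 3 and 4 only. Untreated WT and Swhtr null libraries, from different mice, had correlations of 0.102, 0.378, 0.00762 and 0.374 by number. The same number was the best match there for 1, 2 and 4. Treated libraries had 0.306, 0.00837, -0.00745 and -0.0154 between genotypes. Libraries of different mice can thus deviate together by number, so this check cannot establish pairs. The block within genotypes nevertheless used the numbers of both genotypes. The genes, lists and tests were chosen with earlier results of these data known. Values in every library are given for genes called, for up to 8 genes with the smallest p in each comparison, and for isoforms of at least 10 CPM. Other genes are given by range. Of the 2 wider lists, called genes and the 5 with the smallest p in each treatment comparison are named, except for 1 item that is not reported here.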

Additional observations from a re-analysis of the deposited data

Results flagged for a closer look

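Within groups, 4 of 152 sets of 4 libraries had a library whose gap to its nearest neighbour exceeded Dixon's critical value, which is 2.63%. Chance alone gives about 1 in 20. Swhtr null untreated replicate 2 was low for Hk3, the myeloid hexokinase, at 209.5 CPM against 286 to 301 CPM in the other 3 libraries, and for Eno2, the neuronal enolase, at 21.4 CPM against 26.2 to 26.54 CPM. WT untreated replicate 2 was high for Ldhb, the heart form of lactate dehydrogenase, at 22.1 CPM against 16.4 to 16.96 CPM. The lactate carrier Slc16a1 was low in WT untreated replicate 1, at 18.7 CPM against 25.1 to 25.5 CPM. None of these 4 genes was called in any comparison.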

How the results depend on the processing

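No direction of a called gene or of a median was reversed in the settings tried. For treated against untreated Swhtr null slices the number of called genes among the 36 was 5, and it became 2 with library totals alone, 3 with limma voom, 0 with only the 8 libraries compared and 14 without the fold threshold. It ranged from 0 to 8 when each library was left out. Gbe1 was called in 13 of 16 alternatives, Slc16a3 in 11, Pgk1 and Slc2a1 in 9 each and Gpi1 in 8, and the highest adjusted p was 0.159, for Slc2a1. The median of the 36 genes stayed between -0.42 and -0.33. Over all genes the number of calls was 155, with 6 from the 8 libraries alone, 464 with DESeq2, 224 with limma voom and 616 with the replicate numbers as a block. With that block 6 genes of the set were called in Swhtr null slices (Slc2a3 and Aldoc gained, Gpi1 lost), and the interaction gave 1, Aldoc, at -0.69 ± 0.14 with an adjusted p of 0.0294. In WT and between genotypes, not every same-numbered pair of libraries deviated together, and the block changed no call of the set. Between genotypes the block was a separate fit that paired WT and Swhtr null libraries, from different mice, by number. Without regard to fold, the block within genotypes brought Gys1 and Slc16a3 under an adjusted p of 0.05 in WT, with 42 of 24971 genes in all. The fit paired between genotypes brought Slc2a1 under it in untreated slices (0.35 ± 0.07, adjusted p = 0.0407, edgeR), with 45 genes in all. There the higher genes of the set at an unadjusted p under 0.05 went from 5 to 17, and those of all 24971 genes from 680 to 803. In treated slices the lower genes at that level went from 3 to 10, and those of all genes from 840 to 1295. The cause of these changes was not tested, except that the fit of 8 libraries has fewer libraries by construction. Counts under 10 CPM, as in Slc2a4 and Pfkfb1, limit what could be detected.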

Other observations

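Libraries 3 and 4 were the 2 highest of their group for all 18 glycolytic genes averaging at least 100 CPM in untreated WT slices and for 13 in treated WT slices. In Swhtr null slices this held for 16 genes without and 12 with treatment. Among the 2016 genes of that level in all, the shares with libraries 3 and 4 highest were 31.7%, 27.6%, 19.2% and 37.5% in the same order. The labels give no mouse or litter behind a number, so the number and its source cannot be told apart.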
